A study of Mus musculus with 2 samples.

Results

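The immunoglobulin heavy chain (Igh) V genes were examined for binding of CTCF, the zinc finger protein that together with cohesin anchors chromatin loops. The members were all 185 GENCODE M21 gene models on mouse chromosome 12 whose symbol starts with Ighv, of 55413 gene models on the main chromosomes. They carried 183 distinct symbols, since Ighv5-8 and Ighv1-13 each name a pseudogene and an overlapping IG_LV_gene model on the opposite strand. The annotation classed 113 of them as IG_V_gene, 70 as IG_V_pseudogene and 2 as IG_LV_gene, and they fell into 16 V families. CTCF chromatin immunoprecipitation with sequencing had been done on limbs of embryonic 14.5 day mice of strain B6NCrl, with male and female embryos pooled and the pulverised limbs of several dissections combined. The series holds 2 libraries of this single group, replicate 1 and replicate 2, so no treated or mutant group exists and V genes were compared with the genome. Both libraries name the same biosample, so the spread between them may be technical. Limb contains several cell types that were not separated, so a low signal from every cell and a high signal from few cells cannot be told apart. The peak lists hold no expression values, so the tissue label could not be checked against marker genes.

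The Igh locus encodes antibody heavy chains. In developing B cells the RAG recombinase joins a D gene to a J gene and then a V gene to the joined DJ, cutting at recombination signals made of a heptamer, a spacer and a nonamer, and the signal of a V gene lies directly past its 3' end. The locus folds so that distant V genes reach the D and J genes, and CTCF sites are known from mouse B cells at the 3' end of the locus, in the intergenic control region between the V and D genes (IGCR1) and among the V genes. A CTCF motif has a direction, and loops form mostly between sites that point towards each other. Limb does not rearrange this locus, so the values below describe CTCF in a tissue where the V genes are not joined.

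Peaks were taken from the optimal list, the deposited set of 49970 reproducible peaks, and their height is the deposited signal value, in units that the labels do not explain. The full pooled list and the full list of each replicate hold 300000 peaks each, so their lower parts are long tails of weak summits. Coordinates are mm10 (GRCm38), 1-based. The V region ran from Ighv5-1, the V gene nearest to the D genes, to Ighv1-86, at chr12:113572927-116010093, a span of 2.44 Mb. The first 92 V genes counted from the D side are called proximal and the other 93, from Ighv1-14 at base 114646572 on, distal. The D, J and constant genes lie at lower coordinates, with Igha nearest to the 3' end of the locus, and 183 of the 185 V gene models are on the reverse strand, reading towards the D genes.

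The sequences that carry the result are those directly past the 3' ends of 8 V genes. The first 5 genes had an optimal CTCF peak there. The last 3 had a motif of like score (16.45 to 19.48, against 15.43 to 19.78 in the bound genes). Their flanks occur at a single place in the genome, yet no list held a summit at the site. They were picked after the peaks had been seen, from 5 such sites past a 3' end. Ighv13-2 (score 15.81) and Ighv10-2 (17.21) were not printed. Ighv8-1 and Ighv5-21 are annotated as IG_V_pseudogene, and the 5 bound genes as IG_V_gene. Each line runs 5′ to 3′ on the reverse strand, in the direction of the gene, from the base after the annotated 3' end to the end of the CTCF site. Capitals mark, in order, the heptamer (7 bases), the nonamer (9 bases) and the CTCF motif site (20 bases).
Ighv5-2: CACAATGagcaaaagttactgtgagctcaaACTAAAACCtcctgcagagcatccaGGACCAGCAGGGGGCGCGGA
Ighv2-3: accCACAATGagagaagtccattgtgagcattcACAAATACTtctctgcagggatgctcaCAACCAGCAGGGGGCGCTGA
Ighv5-17: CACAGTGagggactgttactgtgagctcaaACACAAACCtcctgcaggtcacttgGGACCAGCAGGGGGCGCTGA
Ighv2-9: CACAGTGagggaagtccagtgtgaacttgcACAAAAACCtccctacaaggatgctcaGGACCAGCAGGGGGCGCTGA
Ighv11-1: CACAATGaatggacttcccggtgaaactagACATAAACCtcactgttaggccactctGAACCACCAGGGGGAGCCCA
Ighv8-1: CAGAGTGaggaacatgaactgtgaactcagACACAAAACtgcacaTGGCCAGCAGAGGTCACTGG
Ighv2-5: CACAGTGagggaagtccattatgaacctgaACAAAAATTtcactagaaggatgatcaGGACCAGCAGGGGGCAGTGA
Ighv5-21: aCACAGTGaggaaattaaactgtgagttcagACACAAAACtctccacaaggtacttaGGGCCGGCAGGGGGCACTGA

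In all 8 the heptamer and nonamer were separated by a spacer of 23 bases. The best match at Ighv13-2 and at Ighv10-2 also had 23, but the heptamer of Ighv10-2 had 3 mismatches to CACAGTG. In the 5 bound genes the CTCF site began 16 or 18 bases past the nonamer. The recombination signal and the CTCF site thus stood in the same order and at nearly the same spacing in V2, V5 and V11 genes. The unbound Ighv2-5 and Ighv5-21 had the same arrangement, with 18 and 17 bases in between, and Ighv8-1 had 6.

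The V region held 5 optimal peaks, which is 2.05 per Mb, against 18.9 per Mb over the genome. All 5 lay 51 to 72 bp past the 3' end of a proximal V gene, in intergenic sequence, and all 5 sat on a reverse motif. Counted by gene, 5 of 185 V genes (2.70%) had a summit in the gene or within 1 kb. The same held for 30.9% of all genes and for 56.5% of protein-coding genes, and for 6.00% of genes no longer than 1000 bp, the length class of V genes. Split by position, it held for 5 of 92 proximal genes (5.43%) and 0 of 93 distal genes. The 11 further V pseudogenes of the window with other symbols had none. All bound V genes were thus proximal, and the share over all V genes was below that of genes of like length, a difference that was not tested.

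**Figure D1:**
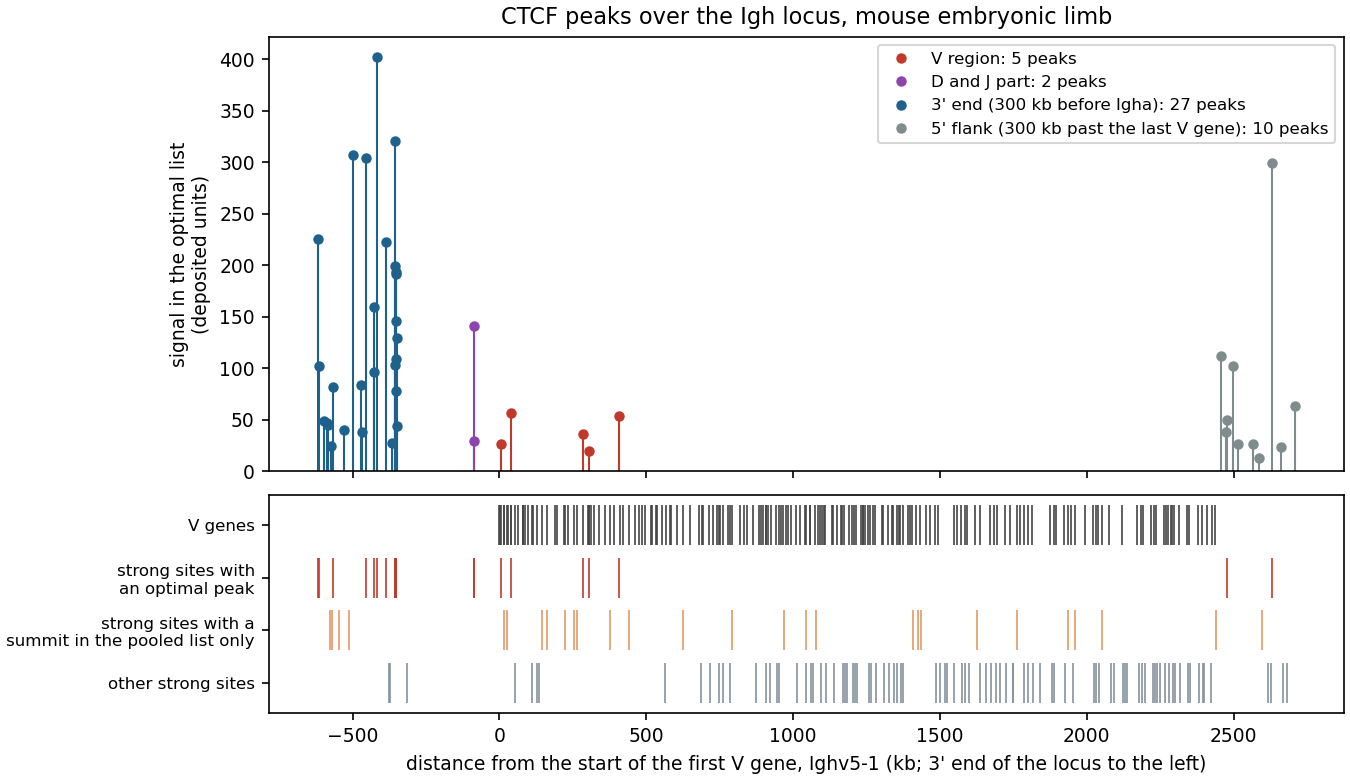
Signal in the optimal list (upper panel, deposited units) of the 44 CTCF peaks from 300 kb before Igha to 300 kb past the last V gene, against the distance from the start of Ighv5-1 in kb, coloured by section, with V genes and strong CTCF motif sites as ticks below. The 5 V region peaks lie at the left of the V genes, while motif sites without an optimal peak run through the whole V region.

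The strongest V region peak stood past Ighv2-3 (gene at chr12:113611187-113611617), with its summit at base 113611136 and an optimal signal of 56.3. Its signal was 28.6 in replicate 1 and 26.4 in replicate 2, which is 27.5 ± 1.58 (SD, n = 2). Ighv11-1 (chr12:113981879-113982341) followed with 53.9 at base 113981807, and with 23.1 in replicate 1 and 31.9 in replicate 2 (27.5 ± 6.24, SD, n = 2). These peaks had the same mean over the libraries, so their order in the optimal list lay within the spread between replicates.

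Ighv5-17 (chr12:113859149-113859670) had an optimal signal of 36.1 at base 113859078, with 15.3 in replicate 1 and 18.2 in replicate 2 (16.8 ± 2.08, SD, n = 2). Ighv5-2 (chr12:113578504-113578990) had 26.2 at base 113578444, with 16.7 in replicate 1 and 11.1 in replicate 2 (13.9 ± 3.90, SD, n = 2). The 2 V5 peaks had overlapping ranges between the libraries. Ighv2-9 (chr12:113879096-113879541) had the lowest optimal signal, 20.3 at base 113879043, with 5.35 in replicate 1 and 15.2 in replicate 2 (10.3 ± 6.96, SD, n = 2). Replicate 2 was thus far higher than replicate 1 at Ighv2-9, whose log2 ratio of replicate 2 to replicate 1 after scaling was 1.58. The Ighv2-9 peak was also missing from the conservative list, another deposited set, of 48829 peaks.

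All 5 peaks were below the median signal of the optimal list, 58.4, and their own median was 36.1. Only 9.07% of optimal peaks were as low as or lower than the Ighv2-9 peak, and 48.9% were as low as or lower than the Ighv2-3 peak. The scaled log2 ratios between replicates had an SD of 0.78 over the 5 peaks, 0.50 over 48703 optimal peaks and 0.63 over the 19524 optimal peaks in the same signal range. Ighv5-2 was higher in replicate 1 (log2 ratio −0.51), Ighv2-3 was nearly equal (−0.04), and Ighv5-17 (0.33), Ighv11-1 (0.54) and Ighv2-9 were higher in replicate 2.

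A further 3 V genes had summits of similar height that were not in the optimal list, and each again lay just past the 3' end. Ighv7-1 had 22.2 in the pooled list, 8.90 in replicate 1 and 11.9 in replicate 2. Ighv7-2 had 20.2 in the pooled list, 6.38 in replicate 1 and 13.6 in replicate 2. Ighv5-9-1 had 18.2 in the pooled list, 7.77 in replicate 1 and 9.69 in replicate 2. The conservative list took Ighv7-1 and Ighv5-9-1 and left out Ighv2-9, giving 6 V region peaks. The strongest 49970 peaks of replicate 1 alone held 4 of the 5 genes without Ighv2-9, and those of replicate 2 alone held all 5 with Ighv7-1 and Ighv7-2. Neither list held a distal V gene.

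**Figure D2:**
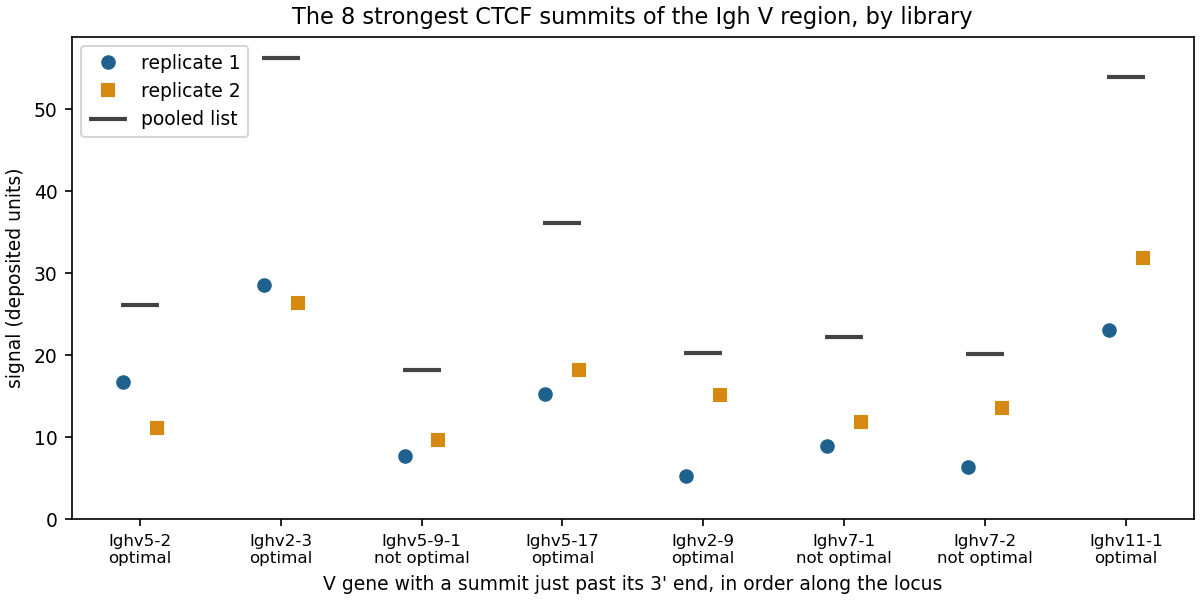
Signal in deposited units of the 8 strongest summits of the V region in replicate 1 (circles), replicate 2 (squares) and the pooled list (bars), in order along the locus, each named by its V gene. Signals of the pooled and replicate lists are on their own scales, and Ighv2-3 and Ighv11-1 are the highest in every list while Ighv2-9 has the widest gap between the libraries, 5.35 in replicate 1 and 15.2 in replicate 2.

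The peaks divided the V region into unequal stretches. Between Ighv2-3 and Ighv5-17 a stretch of 247.9 kb with 21 V gene models, Ighv2-3 to Ighv5-16, held no optimal peak, and between Ighv2-9 and Ighv11-1 a stretch of 102.8 kb held none over 7. The longest stretch began at the Ighv11-1 summit, reached 2028.3 kb to the end of the V region and held 147 V gene models. The next summit lay in the 5' flank, 2046.5 kb away and 18206 bp past Ighv1-86. Among all 49939 intervals between neighbouring optimal summits, ordered by length without unassembled bases, that interval ranked 34, and 26 on the autosomes alone. The median interval over all was 18.1 kb. Low counts over a span like the whole V region were commoner than such empty intervals. Of 1054 tiles of the length of the V region, 94 (8.92%) held 5 peaks or fewer, with a median of 37.0. Tiles with few peaks need not hold an empty stretch of that length.

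A search of the sequence alone, made after the peaks had been seen, showed that the V region is rich in CTCF motifs. A strong site was a 20-base match scoring at least 14.73, the median of the motifs under optimal peaks, with the matrix consensus TGGCCACCAGGGGGCGCTAT. The V region held 114 strong sites, 46.8 per Mb, against 15.2 per Mb over the genome. The 300 kb before Igha held more, 63.3 per Mb. The 5' flank held 26.7 per Mb, the D and J part 13.3 and the constant genes 5.96. Their median score was 18.21, against 16.63 over the genome. Of the 114 sites, 111 (97.4%) were on the reverse strand, the strand of the V genes, against 49.9% over the genome. The 3 forward sites lay in repeat sequence near Ighv5-12, Ighv1-13 and Ighv1-14.

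Few of these sites were bound. An optimal summit lay within 100 bp of 5 of 114 V region sites (4.39%), against 51.6% of strong sites over the genome, a share that is partly set by taking the score threshold from optimal peaks. It was 5 of 37 among proximal genes (13.5%) and 0 of 77 among distal genes. In the full pooled list a summit stood at 27 of 114 V region sites (23.7%), against 71.6% over the genome, with 18 of 37 proximal and 9 of 77 distal sites. After shifting all sites by 10 kb the pooled share was 0 in the V region and 3.42% over the genome, so pooled summits stood at the motif positions and rarely at positions 10 kb away. For 83 V region sites no list held a summit.

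Many V genes are closely related copies, and a short read from an identical stretch cannot be assigned to 1 copy. Of 32-base words, 60.1% in the V region occurred at a single place in the genome, 70.3% among proximal and 52.1% among distal genes, against 81.0% over the genome. A site was called placed uniquely, or to have unique flanks, when sampled 32-base words before it, over it and after it each occurred at 1 place. The words before and after did not adjoin the site, and copies with mismatches were not searched. This left 42 V region sites, of which 5 (11.9%) had an optimal peak, against 64.1% of such sites over the genome. By position the counts were 5 of 26 proximal and 0 of 16 distal sites. In the full pooled list, 20 of the 42 (47.6%) had a summit, against 83.3% over the genome, with 14 of 26 proximal (53.8%) and 6 of 16 distal sites (37.5%). The proximal and distal shares were thus nearer to each other in the pooled list for uniquely placed sites than for all strong sites (48.6% proximal and 11.7% distal). Of 23 uniquely placed V region sites with a score of 18 or more, 3 had an optimal peak, against 84.0% of such sites over the genome. A pooled summit stood at 13 of these 23 (56.5%), 5 of the 10 distal ones included, against 96.0% over the genome. Both the V region and the genome shares were higher for uniquely placed sites than for all strong sites. The part of read placement in the low V region shares was not tested, and how the authors treated reads with several matches is not stated in the labels.

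**Figure D3:**
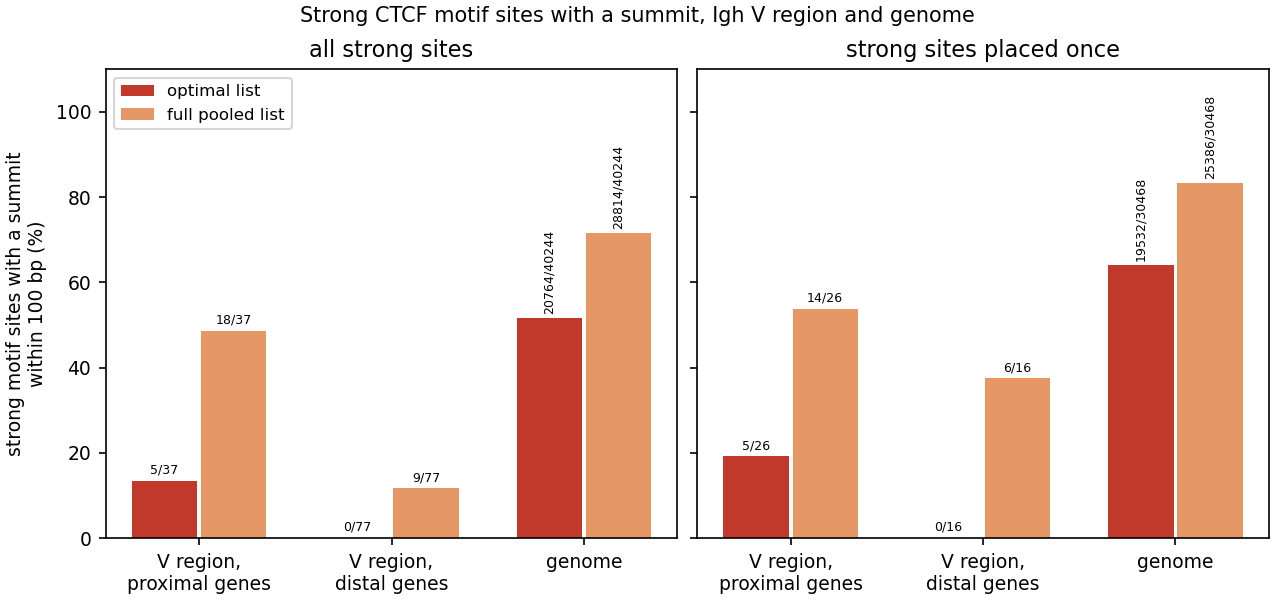
Percent of strong CTCF motif sites with a summit within 100 bp, for proximal V genes, distal V genes and the genome, in the optimal list (red) and the full pooled list (orange), over all strong sites (left) and those with unique flanks (right), with counts on the bars. The optimal share is 13.5% for proximal V genes, 0 for distal V genes and 51.6% for the genome on the left, and 64.1% for the genome on the right.

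The position of the sites separated the V families. Of the 114 strong sites, 24 lay within 100 bp past the 3' end of a V gene, at 55 to 70 bp with a median of 66.0 bp. All 24 were on the reverse strand and all belonged to proximal genes, 20 of them IG_V_gene. They included all 5 sites with an optimal peak, and none of the 90 sites elsewhere had one. Within the 24, 15 had a summit in the pooled list, 9 had summits in both replicate lists and 9 had none in any list. Of the 16 sites with unique flanks 11 had a pooled summit, and of the 8 others 4 did.

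By family, the site past the 3' end was found in 9 of 22 V5 genes, 6 of 11 V2 genes, 3 of 4 V10 genes, both V4 genes, and 1 each of the V8, V11, V12 and V13 genes. Optimal peaks were found at V5 (2), V2 (2) and V11 (1). V4 had pooled summits at both of its sites, with 14.1 at Ighv4-1 and 11.7 at Ighv4-2. V10 had no summit at any of its 3 sites. With the score lowered to 11.84, the level that 1% of windows 1 kb from optimal summits reach, 33 V genes had a motif past the 3' end. All 33 were proximal and all 33 motifs read in the direction of the gene. This added 3 of 4 V7 genes, among them Ighv7-1 with a score of 12.32 and Ighv7-2 with 12.63.

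None of the 93 V1 genes, the largest family, with 79 of the 93 distal genes, had such a motif. Their best score past the 3' end was 3.51 at most and −4.24 at the median. A recombination signal was found in 135 of 185 V genes and in 98 of 113 IG_V_gene models. The heptamer had at most 1 mismatch to CACAGTG and the nonamer at most 3 mismatches to ACAAAAACC. Spacers of 22 to 24 bases and a start within 10 bp of the 3' end were allowed. In most V1 genes the best match had a spacer of 22 bases, not the 23 of the genes printed above. Of the strong sites, 72 had a V1 gene as the nearest. Of these sites, 53 lay between 1000 and 5000 bp before the 3' end of that gene, upstream of it. They gathered at a few distances, with 12 sites at 1100 to 1400 bp, 14 at 2600 to 2800 bp and 15 at 3700 to 4100 bp.

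**Figure D4:**
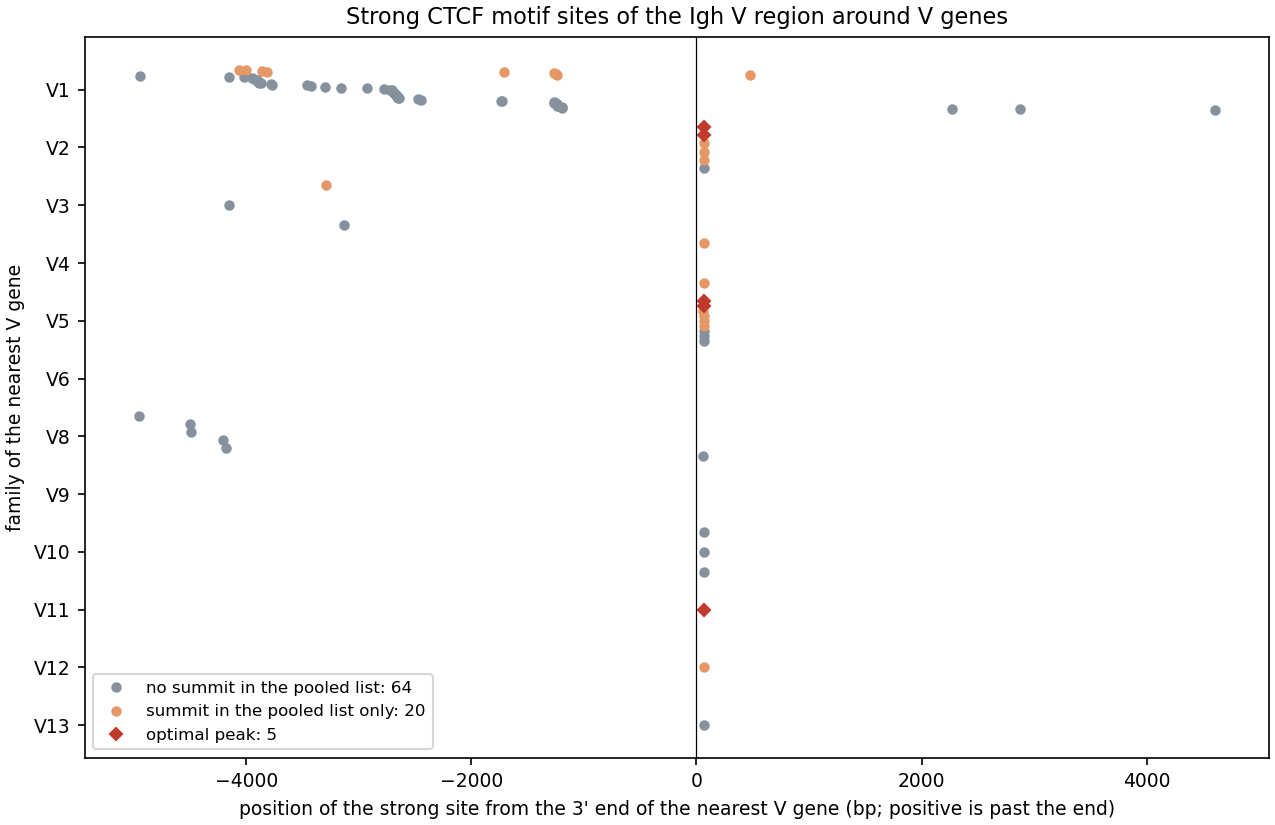
Position in bp of the 89 strong CTCF motif sites that lie within 5 kb of the 3' end of their nearest V gene, by family of that gene, spread vertically within a family so that points do not overlap, with 25 farther sites left out. Optimal peaks (red) are all just past the 3' end in V2, V5 and V11, and V1 sites lie mostly upstream.

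Copies of the same site carried different signals. The 114 sites had 63 distinct sequences, and 18 sequences occurred more than once, covering 69 sites. The site of Ighv5-17 and that of Ighv2-9, printed above, are the same 20 bases, and both had optimal peaks, of 36.1 and 20.3. The site of Ighv2-3 occurred also at Ighv2-6 and Ighv2-6-8. It had a pooled signal of 56.3 at Ighv2-3, 8.64 at Ighv2-6 and 8.18 at Ighv2-6-8. The flanks of Ighv2-3 and Ighv2-6 are unique and those of Ighv2-6-8 are not. One 20-base sequence was shared by 3 V5 genes, none of which had unique flanks at the site. It had a pooled signal of 18.2 at Ighv5-9-1. At Ighv5-6 and Ighv5-12 no list held a summit within 100 bp of the site.

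In the distal region the repeated sites were commoner. Among the 78 sites whose nearest gene is distal, 1 of which lies before Ighv1-14, there were 37 distinct sequences. The most frequent one occurred 14 times, next to V1 genes from Ighv1-50 to Ighv1-74, and 2 of the 14 had a pooled summit. Another occurred 8 times, each next to a V8 gene from Ighv8-5 to Ighv8-14, with no pooled summit. In mouse, intergenic elements with CTCF and Pax5 sites (PAIR elements) are known from the distal region next to V8 genes. None of the 14 copies and none of the 8 copies had unique flanks, so reads there may not be assignable to 1 copy. Missing summits at these copies therefore cannot show that they were unbound. The sequences are shown because the same letters, within a capital block of 20, recur without an optimal peak.
V1 copies: GGACCAGCAGGGGGCACAAT
V8 copies: GGACCAGCAGGGGGTGGTGT

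The distal region was not blank in the weak tail. The pooled list held 55 summits in the V region, 22.6 per Mb against 113.3 per Mb over the genome, with 41 nearest to proximal and 14 nearest to distal genes. Of the strongest 20, 16 stood at a strong site, and of the other 35, 11 did. The strongest distal summit had a pooled signal of 14.1, with 5.93 in replicate 1 and 9.09 in replicate 2, and lay 3981 bp before the 3' end of Ighv1-46. Ighv8-3 followed among summits seen in both replicates, with 9.99 in the pooled list and 4.70 in each replicate, 5210 bp before its 3' end. The highest-scoring strong site of the distal region, with a score of 23.96, lay at chr12:114650622-114650641 upstream of Ighv1-14. It is printed with 5 flanking bases on each side and the site in capitals, and it had a pooled signal of only 8.79, with 4.13 in replicate 1 and 3.93 in replicate 2.
Ighv1-14 upstream site: actcaTGACCAGCAGGGGGCACTATgagac

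The first and last V genes had no optimal peak within 1 kb. Ighv5-1 was 5042 bp from the nearest optimal summit, that of Ighv5-2, and Ighv1-86 was 18206 bp from the first peak of the 5' flank. The pooled list held a weak summit inside Ighv1-86, at base 116009807 with a signal of 5.27, which had 3.37 in replicate 2 and no match in replicate 1.

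Between the V genes and the J genes 2 peaks stood 2585 bp apart, the interval in which IGCR1 is known to lie. The stronger had a signal of 141.4 at base 113487884, with 77.1 in replicate 1 and 66.3 in replicate 2 (71.7 ± 7.63, SD, n = 2), and was 85.0 kb from Ighv5-1. The weaker had 29.9 at base 113485299, with 18.3 in replicate 1 and 11.1 in replicate 2 (14.7 ± 5.10, SD, n = 2). The nearest D gene was Ighd1-1, 5692 bp from the stronger and 3107 bp from the weaker. In this annotation 18 D genes lay on the J side of both peaks and 2 on the V side, so the peaks stood among the D genes. In both libraries the peak nearer to the V genes was the higher, with no overlap, although the motifs scored alike (18.44 and 18.17). The 2 motifs pointed away from each other, forward at the stronger peak and reverse at the weaker. The sites are printed in capitals with 5 flanking bases, each on its own strand.
Stronger peak, forward: gctcaTAGCCACAAGGGGGAAGCAGagact
Weaker peak, reverse: cttccTCTCCACAAGAGGGCAGAATtcggg

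No D gene (0 of 20), J gene (0 of 4) or constant gene (0 of 8) had an optimal peak within 1 kb. The share was 30.9% over all genes and 6.00% over genes no longer than 1000 bp, so few were to be found in groups this small. The constant genes, 167.9 kb from Igha to Ighm, held a single strong site, inside Igha, with a score of 20.31 and no summit in any list. Among the coding genes of the window whose symbols do not start with Igh, 13 of 16 had a peak within 1 kb, against 56.5% of protein-coding genes over the genome. The 3 without one were Adam6a, Adam6b and Gm11027.

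The 3' end of the locus was densely occupied. The 300 kb before Igha held 27 optimal peaks, with signals of up to 401.6 and a median of 102.9. The strongest, 401.6, was at the start of Tedc1, with 205.2 in replicate 1 and 197.6 in replicate 2. Of the 27, 11 lay in the intergenic stretch between Tmem121 and Igha, where the 3' CTCF-binding elements of the locus are known. Of these, 10 formed a group over 8.29 kb, from base 113216118 to base 113224411, that ended 30.4 kb from Igha and 348.5 kb from Ighv5-1. All 10 had a forward motif, and the remaining peak, 27.3 at base 113205764, a reverse one.

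The 10 grouped peaks had signals from 44.0 to 320.7 with a median of 137.6, and 9 were above the median of the optimal list. In replicate 1 they ranged from 27.1 to 166.0 with a median of 72.1, and in replicate 2 from 15.6 to 154.4 with a median of 65.8. The lowest of the 10 was within the range of the V region peaks and the other 9 were above all of them in the optimal list. Replicate 1 was the higher at 6 of the 10 and replicate 2 at the others. The strongest stood at base 113218094, with 166.0 in replicate 1 and 154.4 in replicate 2 (160.2 ± 8.20, SD, n = 2). Its site and the highest-scoring one of the group, at base 113221413 with a score of 20.13 and a signal of 109.3, are printed because they point the opposite way to the V region sites above.
Strongest peak of the group, forward: tctacTGACCACACGGTGGCAGCAGagcgc
Highest score of the group, forward: gcatcTGTCCACCAGGGGGCACCTGagcac

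The forward sites of the 3' group and the forward site next to the D genes thus faced the V region, whose 5 bound sites were all reverse. Pairs of such a forward site and a bound V region site are convergent by this choice of forward sites. The reverse peaks at bases 113205764 and 113485299 were left out of the pairs. Of all strong V region sites, bound or not, 111 of 114 were reverse. Contacts between the paired sites were not measured.

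**Figure D5:**
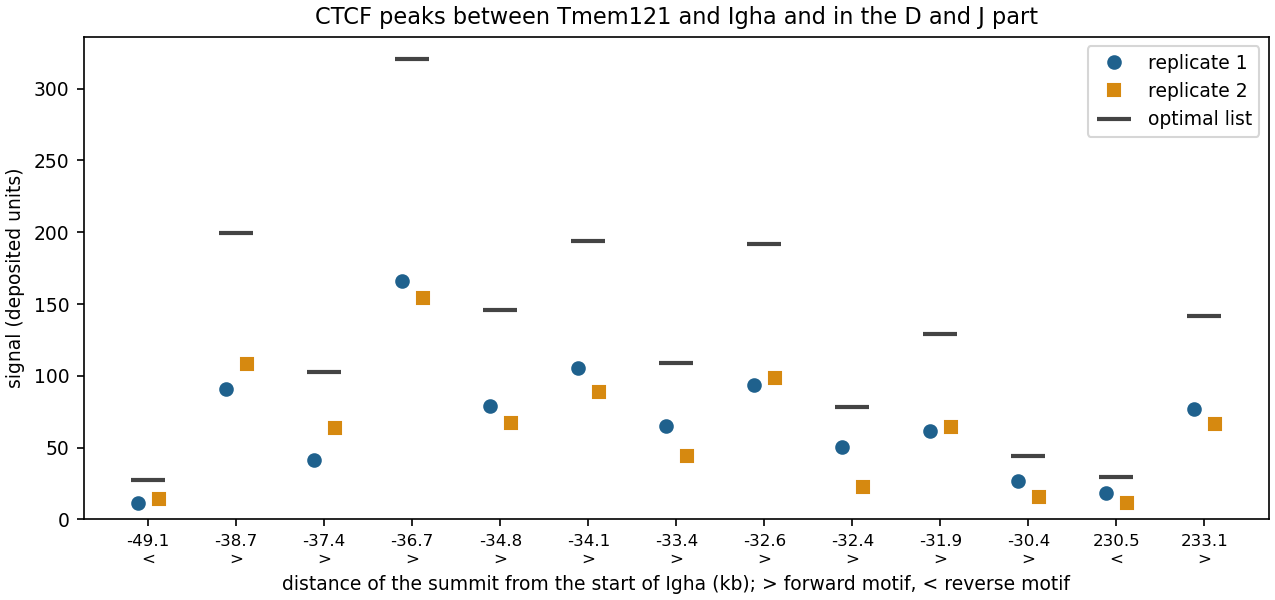
Signal in deposited units of the 13 peaks between Tmem121 and Igha and in the D and J part, in replicate 1 (circles), replicate 2 (squares) and the optimal list (bars), labelled by distance from the start of Igha in kb and by motif direction. The group at the 3' end is forward throughout, and the 2 peaks next to the D genes, the last 2, point in opposite directions.

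On the other side, the 5' flank held 10 optimal peaks in 300 kb, 33.3 per Mb, with a median of 43.9. The strongest, at base 116202806, had a signal of 299.1, with 144.0 in replicate 1 and 157.3 in replicate 2. The peak nearest to the V genes had 111.7 at base 116028299, with 59.5 in replicate 1 and 50.8 in replicate 2, higher than any V region peak in both libraries. Base composition and repeats differed between these sections. G and C made up 39.2% of the V region, 50.7% of the 3' end and 41.7% of the genome, and repeats 45.6% of the V region, 20.9% of the 3' end and 36.4% of the genome. Their part in the peak counts was not tested.

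The other large antigen receptor loci gave a scale for these counts. The V gene spans held 2.05 optimal peaks per Mb at Ighv, 3.81 at Igkv, 10.3 at Trav and 13.5 at Trbv. A peak within 1 kb was found at 5 of 185 Ighv genes, 0 of 160 Igkv genes, 9 of 128 Trav genes (7.03%) and 3 of 35 Trbv genes (8.57%). Of strong sites, 5 of 114 had an optimal peak at Ighv (4.39%), 9 of 41 at Igkv, 15 of 91 at Trav (16.5%) and 7 of 15 at Trbv (46.7%). Among sites with unique flanks the shares were 11.9% of 42 at Ighv, 33.3% of 18 at Igkv, 41.7% of 12 at Trav and 53.8% of 13 at Trbv. Ighv had the lowest share of bound sites of these 4 loci in both counts, and Igkv the lowest share of bound genes. Locus differences were not tested, and sites within a locus include copies of each other. The Trdv, Trgv and Iglv symbols, with 6, 1 and 3 genes, were too few to compare.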

How the data were processed

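CTCF ChIP-seq peaks were read from 5 peak lists on mm10 that the authors deposited (optimal, conservative, pooled and 1 per replicate). The deposited signal value of each peak is the authors' own. The aligner, the peak caller, the thresholds and the normalization of the signal were not given in the sources used for these texts. The lists hold no read counts, so depth is unknown and no counting interval is given. Replicate values are the nearest summit within 100 bp in that replicate's list. For log2 ratios, each replicate was first divided by its own median at optimal peaks (30.6 in replicate 1, 29.1 in replicate 2). Genes were GENCODE M21 models and sequences the GRCm38.p6 assembly, whose chromosome names match the lists.

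A 20-base CTCF matrix was built in 10 rounds on the strongest 1000 optimal peaks of odd-numbered autosomes, so chromosome 12 gave none. A hit within 50 bp of a summit scored at least 6.13, which 5% of windows 1 kb away reach, and 81.8% of optimal peaks had one. Sites were then searched over the genome regardless of peaks. The scripts for matching, motifs and distances recovered planted items in simulated data. Python 3.11.15, numpy 2.4.6 and matplotlib 3.10.9 were used. The members, lists and named items (every V region and D or J peak, the longest empty stretches, the first and last V gene, the strongest flank peaks) were chosen with earlier results of these data known. All comparisons are descriptions without a test, since there is 1 group of 2 libraries.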

Additional observations from a re-analysis of the deposited data

How the results depend on the processing

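The main counts were recomputed with the conservative list, the strongest 49970 pooled peaks, either library alone, other distances, another split of the V genes and other motif thresholds. No result reversed, 51 values stayed close to the main one (within the spread between libraries, or for counts of like size) and 19 moved. With the strongest 50% of the optimal list, the window held 24 peaks and the V region 0, so 0% of V genes and 0% of strong sites were bound and the difference between proximal and distal genes was 0, and motif and signal values could not be given. With a distance of 5 kb, 4.86% of V genes were near a peak and proximal exceeded distal genes by 9.78 percentage points. With IG_V_gene models alone these values were 4.42% and 8.62. The median V region signal was 31.1 in the conservative list, 26.2 in the strongest pooled peaks, and 15.2 to 19.9 when a library was left out, which uses the scale of a single library. The SD of the log2 ratio between libraries was 0.404 in the conservative list, which lacks Ighv2-9 and adds Ighv7-1 and Ighv5-9-1. It was 0.459 to 0.700 over peaks picked from 1 library alone, with both libraries still in the ratio. The share of strong V region sites with a peak was 11.9% for uniquely placed sites, 5.17% for scores of 18 or more, 2.87% down to a score of 11.84, and 3.51% to 4.39% when a library was left out. The strong-site settings were chosen after seeing the data. Unknown depth limits all statements on absence: sites without a summit may hold binding below the reach of these lists, and copies of V genes further limit what reads could show. No paired analysis was possible because the series holds a single group.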
